A study of Mus musculus with 12 samples.

Results

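The comparison described here is development after LINE1 ASO injection: the 3 libraries of mouse embryos at the 4-cell stage (4C) that had received the LINE1 antisense oligonucleotide (ASO) were set against the 3 libraries of early 2-cell embryos (early 2C) that had received the same ASO. These are 6 of the 12 libraries of the series, chosen by their labels. The other 6, RC at 4C and RC at early 2C, went through the same developmental interval with the control ASO, for which the labels give the name RC and no meaning. Every embryo came from a C57BL/6J zygote microinjected with ASO at 0.75 mM. Early 2C embryos were taken 9 h after injection, which was about 33 h after hCG, and 4C embryos after 2 days of culture in KSOM medium. The groups compared therefore share the injection and the LINE1 ASO and differ in stage and in time since injection. Each stage was deposited as a table of its own, so stage and any difference in handling between the tables cannot be told apart.

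LINE1 is the autonomous retrotransposon that takes up the largest share of the mouse genome, and its RNA is abundant in cleaving mouse embryos. An ASO is a short modified nucleic acid that pairs with a chosen RNA and blocks it or leads to its degradation. In the mouse the first cell cycles run largely on RNA and protein stored by the oocyte. That store is degraded while the embryo's own genome is switched on, most strongly in the later 2-cell stage. A short-lived group of 2-cell transcripts, among them those of the factor Dux, the Zscan4 family and the retrovirus MERVL, is made around the 2-cell stage and is then silenced. Ribosomal RNA synthesis resumes, nucleoli form, and genes for ribosomes and for cell adhesion come on as the embryo goes on towards compaction.

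The total was 51854939, 27374708 and 31340610 counts in the early 2C libraries and 24202425, 25101276 and 24641722 in the 4C libraries. The labels do not say whether replicates came from separate pools of embryos, so p-values cover only the variation among these libraries, possibly technical. No spike-in is stated, so levels are relative, and in these bulk samples fewer cells and less RNA per cell cannot be told apart. LINE1 RNA was not analysed here, so the values hold no check of the knockdown. Log2 CPM (counts relative to the library total times its TMM scaling factor) correlated across genes at 0.976 to 0.979 within early 2C, at 0.938 to 0.955 within 4C and at 0.615 to 0.646 between them. No pair of replicates agreed within counting noise (chi-square per degree of freedom 15.6 to 91.8). At 4C, replicate 3 of the LINE1 ASO stood apart from replicates 1 and 2 for many genes and lay nearer to the RC libraries. Calls of named genes that change without it are given below.

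The labelled stages were checked against markers of the oocyte and the cleaving embryo. The oocyte genes Nlrp5, Padi6 and Bmp15 fell from early 2C to 4C (log2 -3.38, -2.46 and -5.00), and Obox6, a homeobox gene of the early embryo, stood at 0.626, 0.402 and 1.16 CPM at early 2C and at 201, 169 and 272 CPM at 4C. Of the other markers chosen for this check, Gdf9, Mos and Pou5f1 were called lower and Nanog higher. Zp3, Dppa3, Zscan4c, Zscan4d, Zfp352, Cdx2 and Tfap2c did not pass. Markers of other cells were low. The summed level of 19 cumulus cell markers was 40.3, 39.8 and 29.4 CPM at early 2C and 41.7, 53.9 and 42.3 CPM at 4C. It was led at early 2C by Cyp19a1, the aromatase gene, at 27.5, 26.4 and 20.5 CPM, and at 4C by Amhr2, a receptor gene, at 28.4, 38.3 and 29.2 CPM, while Lhcgr and Inha were at 0 in all 6 libraries. Of the 11 cumulus markers tested, 3 were called higher (Amhr2 and Inhbb among them) and 3 lower (Cyp19a1 and Fshr among them). The 14 sperm markers summed to 5.72, 3.94 and 6.69 CPM at early 2C and to 1.99, 5.99 and 4.27 CPM at 4C. Sperm protamine Prm2 fell from 3.30, 2.33 and 4.62 to 0.0369, 0.437 and 0 CPM, and Odf1 had 43 counts in all at early 2C and 0 at 4C. The 11 blood markers summed to at most 1.99 CPM in any of the 6 libraries, with the globins at 0, and the 1 tested, Cd74, had a log2 change of 3.75, a call lost without early 2C LINE1 ASO replicate 1 or 2 or 4C LINE1 ASO replicate 1. The part of such cells in the results below was not tested.

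Most of the transcriptome changed between the stages. Of 15760 genes tested, 11319 passed an adjusted p of 0.05 (71.8%, edgeR quasi-likelihood F-test with Benjamini-Hochberg adjustment), 5926 of them higher at 4C (37.6%) and 5393 lower (34.2%). By size, 4167 were over 4-fold higher and 3161 over 4-fold lower, and the quartiles of all tested genes were log2 -1.67 and 2.39, with a median of 0.24. The 3 and 3 libraries did not overlap in CPM for 12411 genes (78.8%). Library totals in place of TMM scaling moved the median by 0.336, and a fit on the 6 libraries alone moved it by -0.141, so changes of that size have no firm direction. Counts of members are to be read against these shares, since a list with such shares in each direction does not stand apart from the table.

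The RC libraries went through the same interval, and the RC comparison shares no library with that of the LINE1 ASO. With RC, 11455 genes passed (72.7%), 5690 higher (36.1%) and 5765 lower (36.6%). The median log2 change of all tested genes was 0.088 with RC, against 0.244 with the LINE1 ASO. Log2 changes correlated at a Pearson r of 0.897 and a Spearman rho of 0.92 over 15760 genes, and at an r of 0.955 over the 11989 genes averaging 50 counts or more. Genes are not independent replicates, and these are descriptions. Calls in the same direction numbered 10077, which is 89% of the LINE1 ASO calls and 88% of the RC calls, and 26 genes were called in opposite directions.

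**Figure D1:**
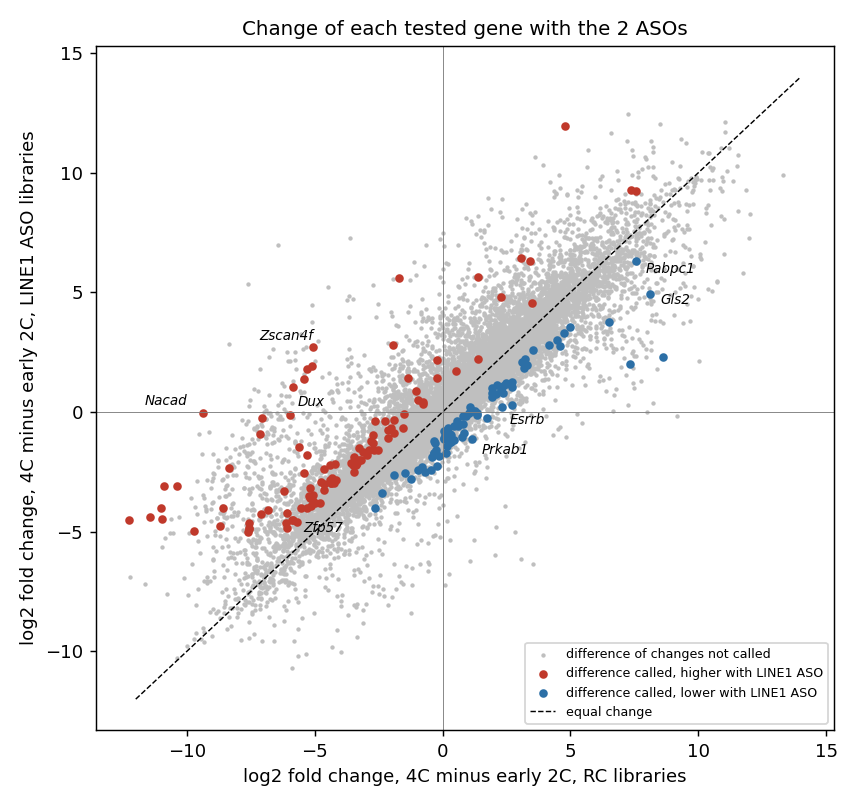
Log2 fold change from early 2C to 4C with the LINE1 ASO (vertical) against that with RC (horizontal) for 15760 genes, with the 102 genes in red and the 74 in blue whose changes differed. Points follow the dashed line of equal change, and most red genes lie at the lower left, where the level fell with both ASOs and fell less with the LINE1 ASO.

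The difference between the changes, taken as the change with the LINE1 ASO minus that with RC, passed for 176 genes (1.12%), 102 with a more positive change with the LINE1 ASO (0.647%) and 74 with a more negative one (0.47%). An unadjusted p under 0.05 was reached by 2757 (17.5%). Of the 102, 89 fell with RC and 70 fell with the LINE1 ASO too, and 16 of them had at most 3 counts in all at 4C with RC. Of the 74, 45 rose with RC, and 27 rose and 36 fell with the LINE1 ASO. The split depends on scaling: 80 and 109 with DESeq2 size factors, 224 and 53 with library totals. The count depends on the libraries: without 4C LINE1 ASO replicate 3 it was 1297, among them all 176, and without any of the other 4C LINE1 ASO or any of the early 2C libraries it was 19 to 38. Of the 26 named genes whose difference passed, all kept the call without 4C LINE1 ASO replicate 3, 4 kept it whichever library was left out (Apobec3, Nacad, Pabpc1 and Prkab1), and the other 22 lost it without 1 or more of the other 11 libraries. Over the 26 genes, the call was lost in 191 of 312 combinations of gene and left-out library. The differences given below are to be read with that limit. Without replicate 3 the difference also passed (edgeR) for other genes named below. It was then positive for Btg4 (0.64), Cnot6l (0.67), Ctsz (3.46), Eda2r (5.39), Sesn2 (1.05), Tcl1 (1.21), Wee2 (0.82), Ybx2 (0.75), Zscan4c (6.55) and Zscan4d (4.19). It was negative for Chka (-1.48), Pou5f1 (-1.25), Rad21 (-2.001), Smc1a (-1.10) and Taf4b (-1.37).

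The oocyte's stored transcripts fell. Of 53 tested oocyte transcripts, 50 were lower at 4C and 0 higher, with a median log2 change of -3.80. Together they stood at 37967, 37455 and 37118 CPM at early 2C and at 3673, 3414 and 2799 CPM at 4C, with no overlap. Bcl2l10, an anti-apoptotic BCL2 family gene of the oocyte, was at 1448, 1489 and 1439 CPM at early 2C. It was at 17.6, 15.1 and 8.14 CPM at 4C (log2 -6.74, SE 0.335; adjusted p = 9.2e-11, edgeR), lowest in replicate 3. Nlrp4f, of an oocyte branch of the NLR family, went from 2306, 2320.1 and 2263 to 72.5, 56.2 and 51.5 CPM (log2 -5.26, SE 0.185; adjusted p = 4.82e-12, edgeR), and both stages were tight. E330034G19Rik, whose role the files do not give, went from 2165, 2380.2 and 2317 to 21.9, 29.5 and 34.7 CPM (log2 -6.32, SE 0.20; adjusted p = 2.09e-12, edgeR). Gdf9, the oocyte growth factor that acts on cumulus cells, fell less, from 559, 467 and 627 to 119, 94.2 and 80.1 CPM (log2 -2.50, SE 0.209; adjusted p = 3.06e-08, edgeR). Mos, the kinase that holds the egg in meiotic arrest, was already at 5.05, 7.04 and 8.41 CPM at early 2C and was at 3.58, 2.86 and 1.74 CPM at 4C (log2 -1.32, SE 0.44; adjusted p = 0.0137, edgeR). Its adjusted p was 0.0506 without 4C LINE1 ASO replicate 3 and 0.0627 with library totals (edgeR). Zp3, the zona pellucida glycoprotein that binds sperm, did not pass (log2 -0.28, SE 0.189; adjusted p = 0.197, edgeR), although its libraries at 46.2, 43.1 and 46.9 and at 36.5, 38.3 and 37.5 CPM did not overlap. Zp1 and Zp2, the other zona genes of the list, were called lower by 1.26 and 2.14 on the log2 scale. The 3 members without a call were Zp3, Dppa3 (0.24) and Sohlh1 (1.47). With RC the median was -4.36. The change with the LINE1 ASO was the less negative for 43 of the 53, but it was also the more positive for 9348 of all 15760 tested genes. For 0 of the 53 did the difference between the ASOs pass the test. Without 4C LINE1 ASO replicate 3, that difference passed for 12, all less negative with the LINE1 ASO. In that fit 767 of all 16347 tested genes passed in that direction.

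**Figure D2:**
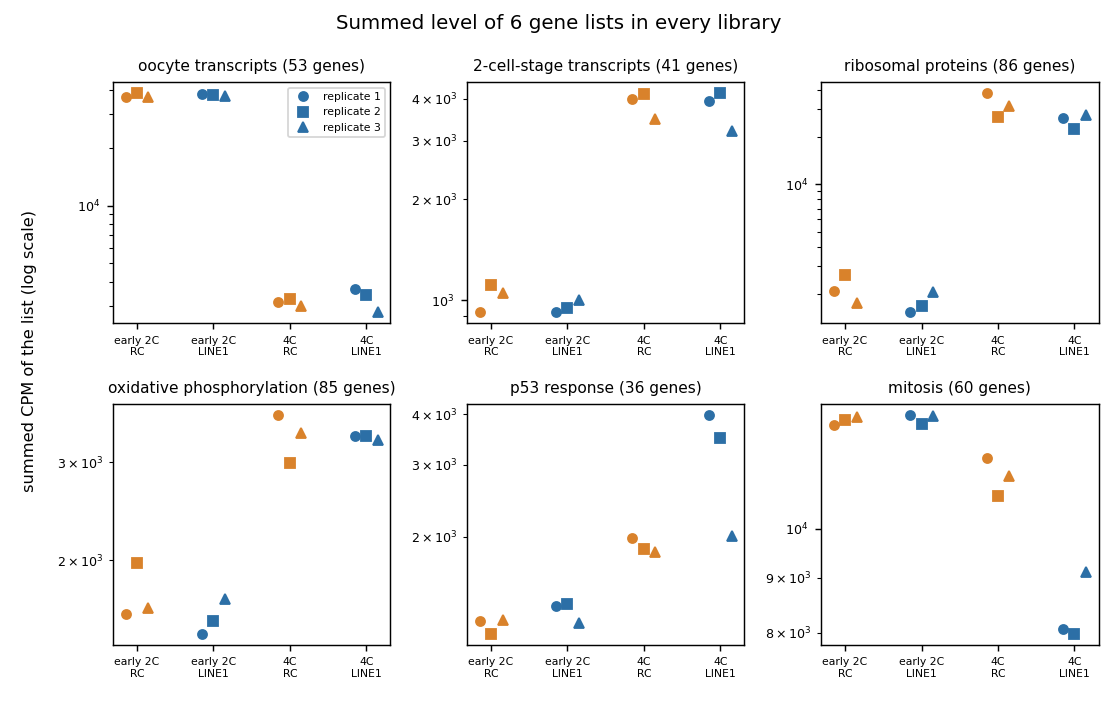
Summed CPM (log axis) of 6 gene lists in each of the 12 libraries, with RC in orange, LINE1 ASO in blue and replicates 1, 2 and 3 as circles, squares and triangles. Oocyte transcripts fell about as far with both ASOs, whereas the p53 list was highest and the mitosis list lowest in 4C LINE1 ASO replicates 1 and 2, with replicate 3 between them and RC.

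Many oocyte-stored transcripts have a broadly expressed relative that does the same work in other cells, and 16 such pairs were followed. Of the 16 oocyte-enriched genes, 12 fell, 2 rose and 2 did not pass. Of their relatives, 8 rose, 5 fell and 3 did not pass. The poly(A) binding protein genes moved furthest apart: oocyte Pabpc1l went from 326, 317 and 289 to 9.20, 6.83 and 2.89 CPM (log2 -5.62, SE 0.357; adjusted p = 1.31e-09, edgeR), and general Pabpc1 from 9.87, 8.85 and 11.5 to 784, 758 and 886 CPM (log2 6.33, SE 0.172; adjusted p = 8.34e-13, edgeR). Neither gene's stages overlapped. The linker histone H1foo of the oocyte fell (log2 -4.04, SE 0.303; adjusted p = 8.66e-09, edgeR), while somatic Hist1h1c rose from 15.5, 12.3 and 10.4 to 144, 212 and 424 CPM (log2 4.35, SE 0.372; adjusted p = 3.91e-08, edgeR), widely spread at 4C. The cap-binding gene Eif4e1b went from 1191, 1259 and 1198 to 47.5, 37.9 and 22.5 CPM (log2 -5.08, SE 0.244; adjusted p = 6.5e-11, edgeR), and Eif4e, its general form, rose by 1.55. Npm2, the oocyte nucleoplasmin, fell by 3.71 and nucleolar Npm1 rose by 1.42. The RNA-binding Ybx2 fell by 3.52 and Ybx1 rose by 1.20. Wee2, the kinase that inhibits Cdk1 in the oocyte, fell by 5.29 and Wee1 rose by 1.01, a call lost without early 2C LINE1 ASO replicate 1 or 2. Among antiproliferative BTG genes, Btg4 went from 2321, 2123 and 2173 to 84.1, 84.7 and 59.6 CPM (log2 -4.86, SE 0.182; adjusted p = 6.62e-12, edgeR), and Btg1 from 4.27, 6.92 and 3.71 to 113, 66.6 and 62.9 CPM (log2 4.03, SE 0.354; adjusted p = 5.36e-08, edgeR).

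In 4 pairs both genes fell. They were Bcl2l10 and Bcl2l1 (-6.74 and -2.77), the TATA-binding Tbpl2 and Tbp (-5.29 and -0.38), the nuclear import receptors Kpna7 and Kpna2 (-5.97 and -0.99), and the cohesin subunits Smc1b and Smc1a (-1.52 and -0.66). The calls of Tbp and Smc1a were lost with library totals (-0.049 and -0.327; adjusted p = 0.769 and 0.125, edgeR), and that of Tbp also without 4C LINE1 ASO replicate 2. In 3 of these the oocyte form fell further by over 2 on the log2 scale. Taf4b and Taf4a, of the general factor TFIID, went the other way: Taf4b rose (log2 1.36, SE 0.207; adjusted p = 2.42e-05, edgeR) and Taf4a fell (log2 -1.79, SE 0.146; adjusted p = 2.24e-08, edgeR). Zfp36l2, an mRNA-decay factor needed in the mouse oocyte, was called higher at 0.63 with overlapping libraries, and the call was lost when any library but 4C LINE1 ASO replicate 1 was left out. Meiotic cohesin genes Rec8 and Stag3 did not pass, and Stag2 rose from 71.8, 57.2 and 46.9 to 569, 525 and 698 CPM (log2 3.35, SE 0.218; adjusted p = 1.77e-09, edgeR). Rad21, the kleisin of mitotic cohesin, was at 364, 372 and 365 CPM and then at 233, 257 and 635 CPM, with 4C replicate 3 well above the others and no call (log2 0.03, SE 0.275; adjusted p = 0.927, edgeR). Without that replicate it was lower by 0.587 (adjusted p = 0.00134, edgeR), and with RC it rose by 1.42.

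**Figure D3:**
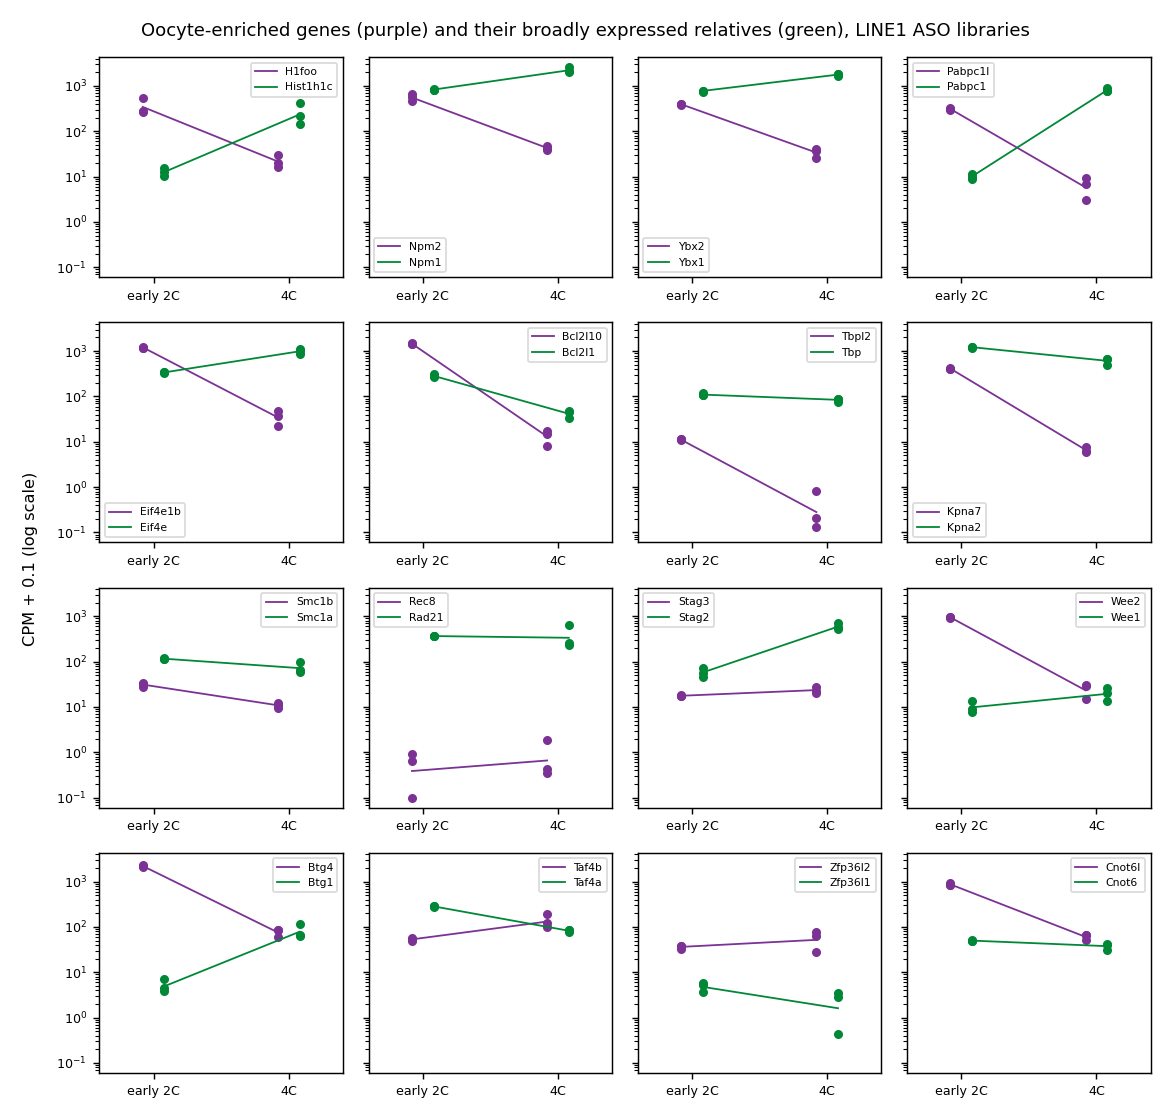
CPM plus 0.1 (log axis) of 16 oocyte-enriched genes (purple) and their broadly expressed relatives (green) in the 3 early 2C and 3 4C LINE1 ASO libraries, with lines through the geometric means. Purple lines fall steeply in 11 panels, and slopes, not heights, are to be compared between genes because CPM is not per transcript length.

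Genes of mRNA deadenylation and decay, which clear the maternal store, were lower more often than the table as a whole: 19 of 36 fell and 11 rose (median -1.05). Those that fell included oocyte-stored parts of the machinery. Cnot6l, a catalytic subunit of the CCR4-NOT deadenylase, was at 935, 828 and 839.7 CPM at early 2C and at 64.7, 64.5 and 51.6 CPM at 4C (log2 -3.85, SE 0.154; adjusted p = 1.19e-11, edgeR), while its relative Cnot6 did not pass (-0.40). Btg4, above, is the adaptor that brings CCR4-NOT to maternal mRNA. Ythdf2, which reads N6-methyladenosine and promotes decay, rose from 60.1, 57.0 and 70.3 to 357, 316 and 342 CPM (log2 2.44, SE 0.137; adjusted p = 3.3e-10, edgeR). Zcchc11, a terminal uridylyltransferase, rose from 0.95, 1.05 and 0.841 to 89.6, 89.3 and 58.9 CPM (log2 6.39, SE 0.313; adjusted p = 7.99e-11, edgeR).

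Ribosomal protein genes rose almost without exception. Of 84 tested, 83 were higher at 4C and 0 lower, the remaining 1 being Rpl30 (2.64), and the libraries did not overlap for any of the 84. Their median log2 change was 4.10, against 0.24 for all tested genes and 4.22 for the same genes with RC. In sum they went from 1537, 1683 and 2070.4 to 26597, 22543 and 27748 CPM. Rpsa, a small-subunit protein, was at 2.91, 4.47 and 2.70 CPM and then at 841, 729 and 973 CPM (log2 7.99, SE 0.276; adjusted p = 4.16e-12, edgeR). It was low in all 3 libraries at early 2C and abundant in all 3 at 4C. Many of these genes have processed pseudogenes, and the sources used here do not say how reads shared with them were counted, so single values are uncertain. They are also short, with a median longest transcript of 1054 nt against 3250 nt for all tested genes. The 1911 other tested genes between 836 and 1662 nt, a description added after the data were seen, had a median of 0.77 with 40.7% called higher.

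Vertebrate ribosomal protein mRNAs are known to begin with a run of pyrimidines, the 5′ terminal oligopyrimidine tract, through which their translation is controlled. RefSeq promoter windows (GRCm38.p6, 250 bases before to 50 from the start) were found for 62 of the 84 genes and searched on the gene's own strand for at least 6 consecutive C or T covering the start. Such a run was present in 19 of the 62 (30.6%), against 8.25% of 12354 tested genes with a window, 8.11% of those called higher and 8.3% of those called lower. The median log2 change was 3.77 for the 19 and 4.38 for the other 43, a difference that was not tested. Genes of a chromosome set aside beforehand were not ranked. Of the rest, the 5 genes of the ribosomal protein and translation factor lists with the run and the largest increase are shown from 30 bases before the start through the first 20 from it, with the run in capitals. They lie at chr11:114668550-114668599 (Rpl38, plus strand, log2 6.63), chr17:33955646-33955695 (Rps18, minus, 6.08), chr3:90213629-90213678 (Rps27, minus, 5.77), chr16:33056452-33056501 (Rpl35a, plus, 5.46) and chr2:180257349-180257398 (Rps21, plus, 5.31).
Rpl38: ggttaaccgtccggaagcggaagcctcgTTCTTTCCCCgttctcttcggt
Rps18: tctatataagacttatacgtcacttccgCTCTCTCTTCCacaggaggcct
Rps27: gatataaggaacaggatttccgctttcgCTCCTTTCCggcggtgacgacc
Rpl35a: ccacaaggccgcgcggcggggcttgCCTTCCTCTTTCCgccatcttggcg
Rps21: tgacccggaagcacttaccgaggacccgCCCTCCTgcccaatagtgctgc

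The machinery that makes ribosomes rose with them: 68 of 83 ribosome biogenesis genes were higher and 2 lower (median 2.05; 2.50 with RC). Fbl, the methyltransferase fibrillarin that modifies ribosomal RNA, went from 8.07, 6.52 and 7.04 to 209, 212 and 231 CPM (log2 4.91, SE 0.181; adjusted p = 5.53e-12, edgeR). Ebna1bp2, a nucleolar assembly factor, went from 15.2, 15.5 and 16.7 to 358, 354 and 281 CPM (log2 4.39, SE 0.159; adjusted p = 4.98e-12, edgeR). Ncl, the nucleolar protein nucleolin, was already at 869, 913 and 945 CPM at early 2C and rose to 2544, 2344 and 2763 CPM (log2 1.49, SE 0.129; adjusted p = 4.24e-08, edgeR). The 2 that fell were Riok1, a kinase of late small-subunit maturation, from 874, 858 and 921 to 70.0, 56.8 and 58.6 CPM (log2 -3.84, SE 0.141; adjusted p = 5.4e-12, edgeR), and Mphosph10 of the small-subunit processome (log2 -0.63, SE 0.163; adjusted p = 0.00277, edgeR), whose call was lost with library totals (-0.296; adjusted p = 0.108, edgeR). The precursor of ribosomal RNA itself, counted as Rn45s, rose from 2978, 4576 and 5842 to 43163, 35645 and 43574 CPM (log2 3.19, SE 0.31; adjusted p = 1.69e-07, edgeR) and made up 4.22% to 4.89% of the unscaled counts of the 4C libraries, the most of any gene. It is a repeated gene and its early 2C libraries were widely spread, so its value is uncertain.

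Of 58 translation factors, 48 rose and 7 fell (median 1.68). Eif3l, a subunit of initiation factor eIF3, rose from 14.2, 11.1 and 11.7 to 277, 262 and 309 CPM (log2 4.52, SE 0.177; adjusted p = 9.67e-12, edgeR). Those that fell included Eif4e1b, above, and Eif1b, from 238, 259.6 and 275 to 40.4, 35.6 and 40.4 CPM (log2 -2.73, SE 0.165; adjusted p = 7.4e-10, edgeR). Pabpc1 rose with both ASOs but by less with the LINE1 ASO: its 4C level was 784, 758 and 886 CPM with the LINE1 ASO and 1506, 1212 and 1386 CPM with RC, without overlap (difference -1.23, SE 0.20; adjusted p = 0.0114, edgeR).

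Genes of protein turnover, RNA splicing and respiration also rose on balance. Of 44 proteasome genes, 33 were higher and 5 lower (median 1.62). The core subunit genes Psma3 and Psmb1 rose by 3.48 and 3.64, and those that fell included Psme3, a regulator, from 591, 586 and 545 to 177, 160.0 and 137 CPM (log2 -1.86, SE 0.157; adjusted p = 3.39e-08, edgeR), along with Psmd9, an assembly chaperone (-1.17). Of 62 splicing genes, 39 were higher and 10 lower (median 0.82). Snrpb, a core snRNP protein, rose from 0.993, 1.73 and 1.23 to 117, 99.2 and 104 CPM (log2 6.36, SE 0.305; adjusted p = 6.3e-11, edgeR) and Srsf7, an SR protein, by 3.82, while Snrnp27 and Prpf6 of the tri-snRNP fell by 1.82 and 1.24. Of 81 nuclear genes of oxidative phosphorylation, 55 were higher and 8 lower (median 1.69; 1.41 with RC). Atp5g1, the membrane ring subunit of ATP synthase, rose from 5.09, 4.63 and 4.03 to 77.4, 65.8 and 60.2 CPM (log2 3.88, SE 0.248; adjusted p = 1.4e-09, edgeR), and Atp5j by 4.64. Sdha, the flavoprotein of complex II, fell from 191, 204 and 195 to 44.2, 43.0 and 39.0 CPM (log2 -2.23, SE 0.166; adjusted p = 8.25e-09, edgeR), and Ndufa10 of complex I by 1.73. The 8 that fell also held Sdhc and Sdhd of complex II and isoforms used in few tissues (Cox6a2, Cox6b2 and Ndufa4l2), while Atp5sl was the remaining one.

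Sugar metabolism split. Of 28 glycolysis and pentose phosphate genes, 12 rose and 10 fell, with a median of 0.43, near the table's. Slc2a3, a high-affinity glucose transporter, rose from 0.95, 0.322 and 0.175 to 42.0, 37.2 and 53.7 CPM (log2 6.39, SE 0.457; adjusted p = 4.96e-09, edgeR). The pentose phosphate pathway genes G6pdx and Pgd moved in opposite directions: G6pdx went from 549, 465 and 638 to 19.5, 27.2 and 23.8 CPM (log2 -4.55, SE 0.256; adjusted p = 3.53e-10, edgeR) and Pgd from 26.4, 20.8 and 22.8 to 124, 133 and 152 CPM (log2 2.54, SE 0.176; adjusted p = 3.53e-09, edgeR). Ldhb, the lactate dehydrogenase subunit stored in the mouse egg, fell from 1159, 1196 and 1350.4 to 92.9, 97.0 and 76.4 CPM (log2 -3.80, SE 0.154; adjusted p = 1.3e-11, edgeR). It fell further with RC, to 44.0, 49.6 and 52.0 CPM (difference 0.99, SE 0.196; adjusted p = 0.0381, edgeR).

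Transcription factors of genome activation and of lineage choice gave a mixed picture. Of 33 zygotic regulators, 19 rose and 8 fell (median 1.71). Obox6 rose (log2 8.19, SE 0.341; adjusted p = 1.7e-11, edgeR), and Gabpa, an ETS factor, from 2.89, 3.74 and 2.49 to 229.8, 195 and 311 CPM (log2 6.34, SE 0.26; adjusted p = 1.5e-11, edgeR). The oocyte-stored relatives Obox1 and Obox5 fell by 6.39 and 5.51, Obox1 from 489.6, 496 and 455 to 4.69, 6.02 and 6.48 CPM. Obox genes are a multicopy family and reads may be split among them. Of 35 pluripotency and lineage genes, 16 rose and 7 fell (median 0.74; 1.45 with RC, where 22 rose and 9 fell). Fgf4, the growth factor later made by the epiblast, was at 0.0432, 0.161 and 0 CPM and then at 56.5, 68.8 and 62.1 CPM (log2 9.90, SE 0.485; adjusted p = 5.11e-10, edgeR). Klf2 went from 2.68, 3.46 and 1.79 to 56.3, 83.4 and 124 CPM (log2 5.06, SE 0.314; adjusted p = 1.03e-09, edgeR), lower in replicate 1 than in replicate 3. Nanog was only just switched on, at 0, 0.241 and 0.0701 and then 1.55, 1.24 and 1.77 CPM (log2 3.95, SE 1.03; adjusted p = 0.00281, edgeR), and Cdx2 and Sox2 did not pass (0.37 and -0.34). Pou5f1, carried over from the oocyte, fell from 234, 253 and 253 to 75.4, 39.7 and 105 CPM (log2 -1.75, SE 0.284; adjusted p = 4.58e-05, edgeR). Tcl1, an oocyte-stored coactivator of Akt, and Gata3, a trophectoderm factor, fell by 6.27 and 3.15.

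The change of 2 of these factors differed between the ASOs. Esrrb, an orphan nuclear receptor of pluripotent cells, was at 28.0, 28.9 and 28.5 CPM at early 2C and at 14.6, 26.4 and 56.9 CPM at 4C with the LINE1 ASO, which did not pass (log2 0.20, SE 0.324; adjusted p = 0.596, edgeR). With RC it rose from 23.9, 22.8 and 22.4 to 115, 110.1 and 119.8 CPM, above every LINE1 ASO library (difference -2.12, SE 0.463; adjusted p = 0.0454, edgeR). Tfap2c, a factor of trophectoderm and germ cells, stayed at 73.4, 75.8 and 102 CPM against 83.2, 79.9 and 82.8 CPM at early 2C (log2 0.03, SE 0.17; adjusted p = 0.887, edgeR). With RC it reached 182, 155 and 169 CPM (difference -1.18, SE 0.242; adjusted p = 0.0399, edgeR). Replicate 3 was the highest 4C LINE1 ASO library for both genes, and without it the differences were -2.79 and -1.34 (adjusted p = 0.000237 and 0.00226, edgeR). Their calls were lost in 10 and 8 of the fits that left out 1 library.

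Genes of adhesion and polarity, needed later for compaction, were called higher more often than lower. Of 45 tested, 25 were higher and 10 lower (median 1.08, and 1.02 with RC). Their summed level overlapped between the stages, at 3763, 3559 and 3921 CPM at early 2C and 3845, 3547 and 4308 CPM at 4C. Epcam, an epithelial adhesion molecule, went from 0.712, 0.402 and 0.736 to 82.9, 72.8 and 69.2 CPM (log2 6.89, SE 0.281; adjusted p = 1.41e-11, edgeR), and Amotl2, a junctional regulator of Hippo signalling, from 1.96, 2.29 and 1.33 to 156, 99.1 and 123 CPM (log2 6.08, SE 0.343; adjusted p = 3.67e-10, edgeR). Cdh1, the gene of E-cadherin, was already present and rose by 0.65 (adjusted p = 0.0046, edgeR; 0.107 without early 2C LINE1 ASO replicate 2). The keratins Krt8 and Krt18, which mark the trophectoderm, were called higher from low levels, Krt18 from 0.82, 1.09 and 1.02 to 4.39, 11.8 and 6.55 CPM. Itga6, the laminin receptor subunit, and Pard3 of the polarity complex fell by 1.73 and 2.20.

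**Figure D4:**
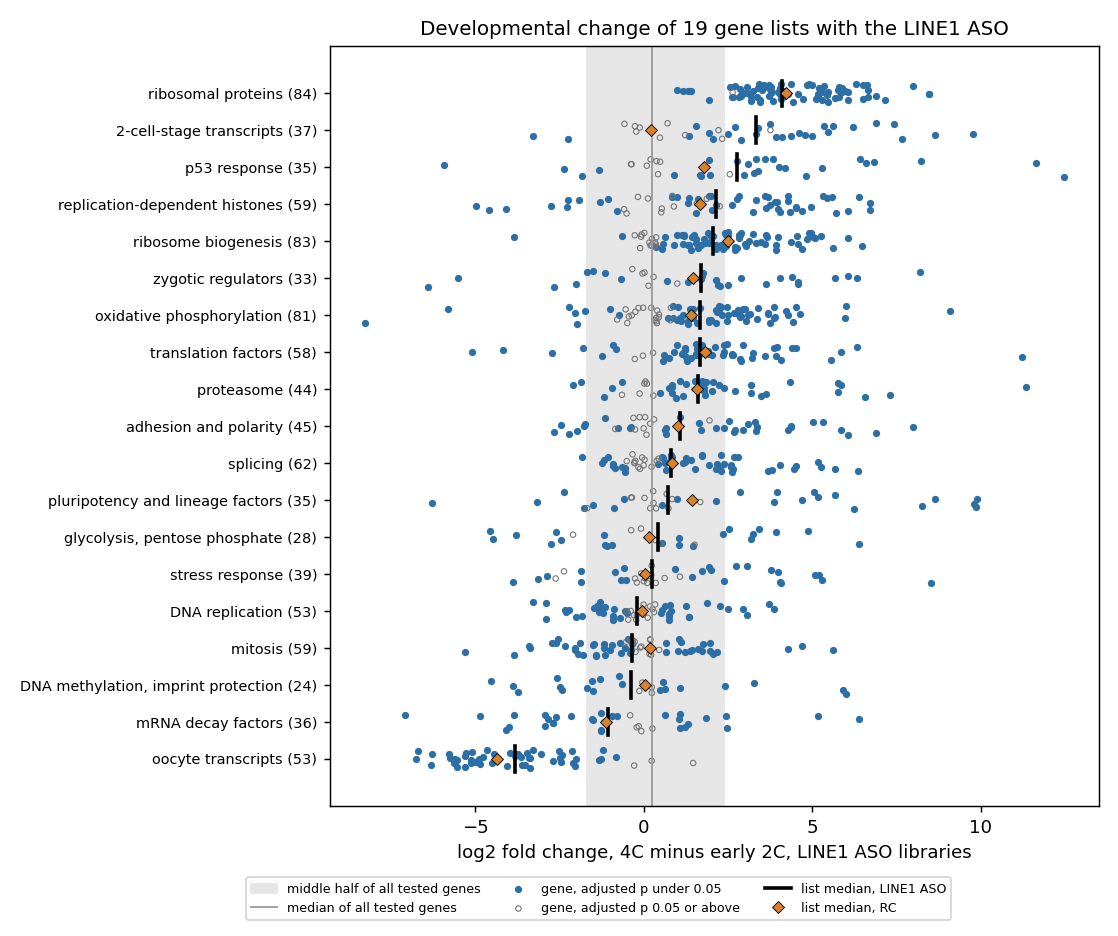
Log2 fold change from early 2C to 4C with the LINE1 ASO for each tested gene of 19 lists (points, filled where adjusted p was under 0.05), with the number of genes in brackets, list medians as black bars and RC list medians as diamonds. Ribosomal proteins lie furthest to the right of the grey band between the quartiles of all tested genes and oocyte transcripts furthest to the left, and the LINE1 ASO and RC medians lie furthest apart for the 2-cell-stage transcripts.

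The 2-cell-stage transcripts, genes linked to MERVL or activated by Dux, were higher at 4C with the LINE1 ASO than the table as a whole. Of 37 tested, 25 rose and 2 fell, with a median of 3.32. With RC, 16 rose and 10 fell and the median was 0.22. In sum they went from 924, 946 and 999.8 to 3937, 4152 and 3211 CPM, and with RC to 3994, 4125 and 3476 CPM, so the sums at 4C overlapped between the ASOs. Some members rose steeply with both ASOs. Pramel7, a gene of early embryos, was at 0.669, 1.01 and 0.175 CPM and then at 516, 636 and 471 CPM (log2 9.78, SE 0.481; adjusted p = 8.27e-11, edgeR), with 634, 636 and 486 CPM in 4C RC. Chka, choline kinase alpha, went from 4.79, 6.08 and 2.31 to 309.8, 295 and 383 CPM (log2 6.23, SE 0.314; adjusted p = 1.08e-10, edgeR). The 2 that fell were Arg2, a mitochondrial arginase, from 135, 111 and 120.2 to 5.61, 20.6 and 11.2 CPM (log2 -3.29, SE 0.431; adjusted p = 4.87e-06, edgeR), and Slc25a31, an ADP/ATP carrier (-2.23), both also lower with RC (-2.78 and -2.24). Many genes of the list are in multicopy families, whose single values are uncertain.

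For Dux and Zscan4f the change differed between the ASOs. Dux was at 27.2, 40.4 and 29.9 CPM at early 2C and at 43.0, 45.8 and 1.27 CPM at 4C with the LINE1 ASO, which did not pass (log2 -0.11, SE 0.714; adjusted p = 0.894, edgeR). Replicates 1 and 2 were above the early 2C range and replicate 3 far below it. With RC it fell from 29.1, 27.1 and 35.6 to 0.792, 0.0941 and 0.563 CPM, so the changes differed by 5.85 (SE 1.18; adjusted p = 0.0386, edgeR). Without 4C LINE1 ASO replicate 3 the difference was 6.41 (adjusted p = 2.43e-05, edgeR), but its call was lost in 10 of the fits that left out 1 library. Zscan4f, of a family of 2-cell zinc-finger genes, was at 0.561, 1.01 and 0.946 CPM and then at 6.50, 9.48 and 0.398 CPM (log2 2.71, SE 0.959; adjusted p = 0.0194, edgeR), again low in replicate 3, and the call was lost without any 1 early 2C LINE1 ASO library or 4C replicate 2, and with the replicate block. With RC it fell from 2.11, 1.76 and 1.18 to 0, 0.141 and 0 CPM (difference 7.79, SE 1.57; adjusted p = 0.0386, edgeR), and it is 1 of 26 genes in the table called in opposite directions with the ASOs. Zscan4c went from 1.49, 0.764 and 1.65 to 9.38, 8.71 and 0.217 CPM and Zscan4d from 3.07, 5.31 and 3.92 to 1.62, 8.14 and 0.506 CPM, and neither passed (2.22 and -0.26). Without replicate 3 Zscan4c passed as higher (2.79; adjusted p = 0.0105, edgeR). Their differences from RC, 5.98 and 3.68, did not pass (adjusted p = 0.0883 and 0.0967, edgeR) but did without replicate 3 (adjusted p = 0.00686 and 0.00823, edgeR). Zfp352 was at 6.50, 51.4 and 17.1 CPM at 4C and at 8.99, 28.9 and 5.96 CPM with RC, widely spread in both. The difference from RC passed for 2 of the 37 members (Dux and Zscan4f) against 0.647% of all genes in that direction (102 genes). Without 4C LINE1 ASO replicate 3 it passed as positive for 14 of 38 tested members and as negative for 1. In that fit 767 and 530 of all 16347 tested genes passed in these directions. That replicate was nearest to RC for Dux, Zscan4f, Zscan4c and Zscan4d, while for Zfp352 the 4C libraries of the ASOs overlapped.

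**Figure D5:**
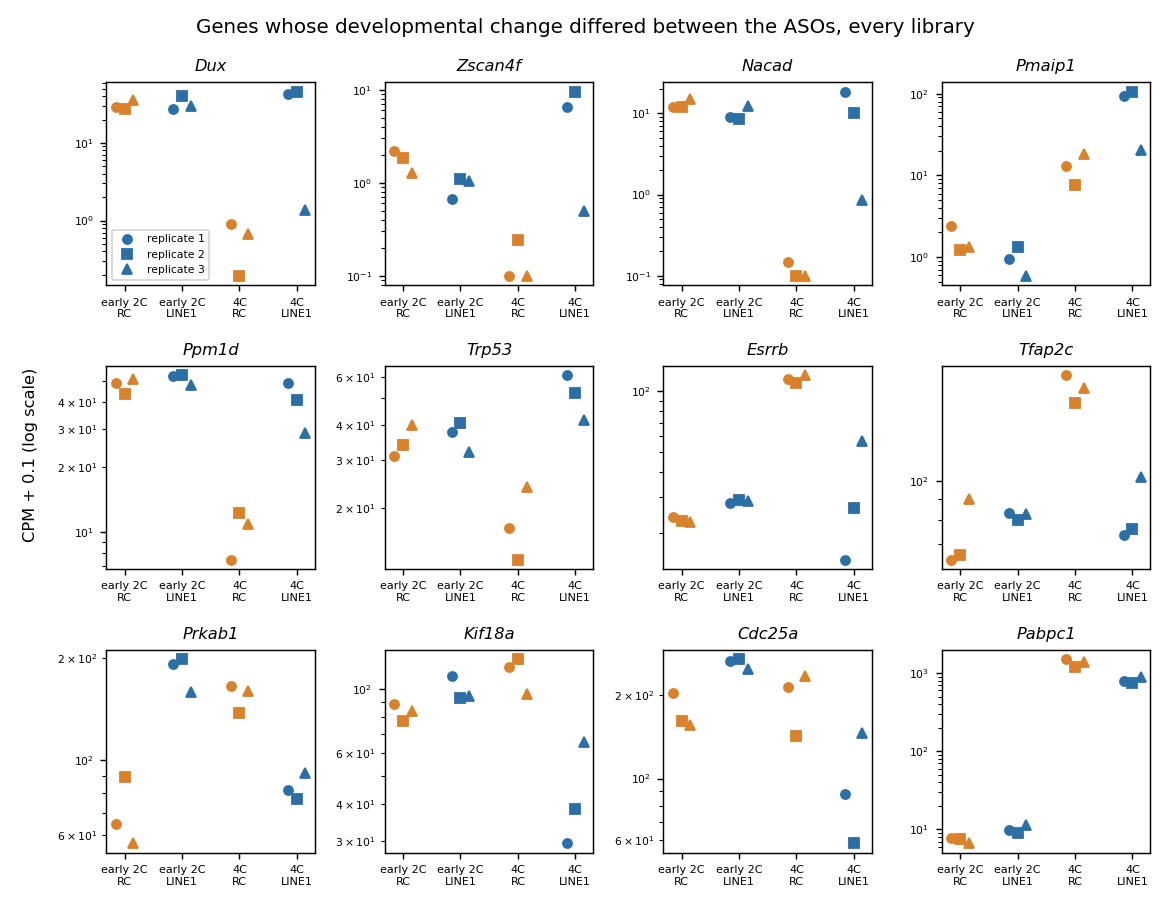
CPM plus 0.1 (log axis, a separate range for each gene) of 12 genes whose change from early 2C to 4C differed between the ASOs, in every library, with RC in orange, LINE1 ASO in blue and replicates 1, 2 and 3 as circles, squares and triangles. The triangle of 4C LINE1 ASO replicate 3 lies between replicates 1 and 2 and the 4C RC libraries for 11 of the 12 genes, and within the RC range for Cdc25a.

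Genes of the p53 response, the programme of cell cycle arrest, repair and apoptosis that the transcription factor p53 turns on, rose on balance with both ASOs, with the larger median with the LINE1 ASO. Of 35 tested, 23 were higher and 4 lower (median 2.77), against 21 and 7 with RC (median 1.79). In sum they went from 1351, 1368 and 1228 to 3977, 3498 and 2004 CPM with the LINE1 ASO and from 1240.3, 1155 and 1251 to 1986, 1869 and 1838 CPM with RC, and 4C replicate 3 was close to RC. The change was the more positive with the LINE1 ASO for 32 of the 35, against 9348 of all 15760 tested genes. The difference passed for 4, against 0.647% of all tested genes. Without replicate 3, a choice that favours such calls, it passed for 12 of 36, against 767 of all 16347 tested genes in that direction. Pmaip1, the pro-apoptotic gene Noxa, went from 0.842, 1.25 and 0.49 to 93.8, 106 and 20.5 CPM (log2 6.42, SE 0.633; adjusted p = 2.02e-07, edgeR), against 13.0, 7.48 and 18.4 CPM in 4C RC (difference 3.35, SE 0.77; adjusted p = 0.0498, edgeR). Sesn1, a stress-induced inhibitor of mTORC1 signalling, went from 1.01, 0.563 and 0.771 to 23.9, 17.6 and 26.3 CPM (log2 4.82, SE 0.403; adjusted p = 3e-08, edgeR), with a difference of 2.52 (adjusted p = 0.0381, edgeR). Here the difference lay in the early 2C libraries, at 3.76, 1.83 and 3.54 CPM with RC, while those at 4C overlapped (14.4, 12.7 and 17.9 CPM with RC).

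For the other 2 the level fell with RC, and the change with the LINE1 ASO did not pass with all libraries. Ppm1d, the phosphatase Wip1 that dampens p53 signalling, was at 52.7, 53.3 and 48.2 CPM and then at 49.2, 41.1 and 28.7 CPM (log2 -0.37, SE 0.225; adjusted p = 0.148, edgeR). With RC it fell to 7.36, 12.2 and 10.8 CPM, below every LINE1 ASO library (difference 1.87, SE 0.323; adjusted p = 0.0201, edgeR). Trp53, the gene of p53 itself, was at 37.6, 40.7 and 31.8 CPM and then at 60.5, 52.4 and 41.7 CPM (log2 0.49, SE 0.234; adjusted p = 0.0716, edgeR). Without 4C LINE1 ASO replicate 3 it passed as higher (0.62; adjusted p = 0.0351, edgeR), and likewise with library totals (0.828; adjusted p = 0.00417, edgeR). With RC it fell to 16.9, 12.9 and 23.9 CPM (difference 1.45, SE 0.333; adjusted p = 0.0498, edgeR). Among members that rose strongly with both ASOs, Sesn2 went from 7.47, 7.68 and 4.73 to 338, 294 and 151 CPM (log2 5.30, SE 0.295; adjusted p = 3.25e-10, edgeR) and Ei24 from 46.9, 55.6 and 49.5 to 572, 587 and 454 CPM (log2 3.41, SE 0.148; adjusted p = 2.38e-11, edgeR), without a called difference, though that of Sesn2 passed without replicate 3 (1.05; adjusted p = 0.0219, edgeR). Rrm2b, a ribonucleotide reductase subunit stored in the oocyte, and Trp73, a p53 relative of the oocyte, fell by 2.37 and 5.91.

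RefSeq promoter windows were found for 27 of the 35 p53 response genes and searched for the p53 decamer, the 10-base consensus that p53 binds in pairs, which reads the same on both strands. It was present in 11 of the 27 (40.7%), 7 of them among the 19 with a window that were called higher, and in 8.53% of the 12354 tested genes with a window. A match is only a run of letters, and more distant sites were not searched. The matches of the 3 genes with a called difference that had one (Ppm1d, Sesn1 and Trp53), of the p53-regulated cell cycle inhibitor p21 (Cdkn1a, 1 of 2 matches) and of the ubiquitin ligase of p53 (Mdm2) are shown with 10 bases on either side, the decamer in capitals. They lie at chr17:29090918-29090947 (Cdkn1a, plus strand), chr10:117710925-117710954 (Mdm2, minus), chr11:85311112-85311141 (Ppm1d, plus), chr10:41887256-41887285 (Sesn1, plus) and chr11:69580274-69580303 (Trp53, plus) of GRCm38.p6.
Cdkn1a: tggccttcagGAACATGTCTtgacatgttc
Mdm2: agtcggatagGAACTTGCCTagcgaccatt
Ppm1d: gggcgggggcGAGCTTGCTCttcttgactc
Sesn1: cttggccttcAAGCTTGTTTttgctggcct
Trp53: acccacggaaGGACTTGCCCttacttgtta
These 5 did not move alike: Cdkn1a rose by 6.85 with the LINE1 ASO and 5.99 with RC, Mdm2 rose by 0.92 with the LINE1 ASO and had -0.12 with RC, and the other 3 are described above. No window held a match for Phlda3 or Eda2r, p53 targets named below for the size of their increase.

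Stress response genes did not stand apart from the table, with 16 of 39 higher and 9 lower (median 0.24). Psat1, a serine synthesis enzyme and target of the integrated stress response, went from 1.66, 1.09 and 0.28 to 424, 359 and 406 CPM (log2 8.54, SE 0.377; adjusted p = 2.87e-11, edgeR), and Dnajb9, a chaperone of the endoplasmic reticulum, from 10.3, 11.5 and 9.49 to 441, 426 and 296 CPM (log2 5.22, SE 0.217; adjusted p = 1.7e-11, edgeR). Both rose about as far with RC (8.44 and 4.73). The kinase gene Eif2ak4 and the cystine transporter Slc7a11 fell by 3.12 and 2.86, and Hspa1a, an inducible Hsp70, was called higher at 5.58, 5.05 and 4.38 CPM, not without early 2C LINE1 ASO replicate 1 or 2. Manf, a factor secreted under endoplasmic reticulum stress, went from 28.8, 28.4 and 24.5 to 104, 88.2 and 78.3 CPM (log2 1.73, SE 0.184; adjusted p = 4.84e-07, edgeR), against 61.1, 46.3 and 52.3 CPM in 4C RC (difference 1.20, SE 0.255; adjusted p = 0.0434, edgeR).

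Cell division genes were called lower more often than higher with the LINE1 ASO. Of 59 mitosis genes, 29 fell and 18 rose (median -0.33), and with RC 21 fell and 26 rose (median 0.20). The LINE1 ASO median ranged from -0.543 to 0.008 over the alternatives, so its sign is not firm. In sum the mitosis genes stood at 8069, 7979 and 9112 CPM at 4C with the LINE1 ASO and at 11644, 10736 and 11197 CPM with RC, from a like level at early 2C. Some members fell with both ASOs: Nuf2 of the kinetochore went from 364, 373 and 397 to 25.0, 26.0 and 27.9 CPM (log2 -3.85, SE 0.143; adjusted p = 5.76e-12, edgeR) and Ttk, a spindle checkpoint kinase, from 475, 441 and 439 to 38.2, 51.3 and 42.1 CPM (log2 -3.36, SE 0.149; adjusted p = 2.89e-11, edgeR). Ccne1, the cyclin that drives entry into S phase, rose from 6.58, 6.36 and 7.36 to 307, 359.9 and 328 CPM (log2 5.61, SE 0.158; adjusted p = 8.52e-13, edgeR), and Cdk4 from 4.06, 3.62 and 3.19 to 64.3, 74.7 and 74.8 CPM (log2 4.29, SE 0.25; adjusted p = 5.11e-10, edgeR).

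For 3 mitosis genes the change differed between the ASOs, all lower with the LINE1 ASO, against 0.47% of all tested genes in that direction (74 genes). Cdc25a, the phosphatase that activates cyclin-dependent kinases, fell from 264, 269 and 249 to 88.0, 58.4 and 146 CPM (log2 -1.42, SE 0.264; adjusted p = 0.000173, edgeR). It did not pass with RC, at 202, 161 and 156 and then 213, 142 and 234 CPM (difference -1.60, SE 0.368; adjusted p = 0.0498, edgeR). Kif18a, a kinesin that aligns chromosomes, fell from 111, 92.7 and 94.8 to 29.2, 38.6 and 65.6 CPM (log2 -1.16, SE 0.234; adjusted p = 0.00036, edgeR), against 119, 127 and 96.4 CPM in 4C RC (difference -1.61, SE 0.328; adjusted p = 0.0394, edgeR). Prc1, an organiser of the central spindle, fell from 609, 617 and 582 to 347, 358 and 432 CPM (log2 -0.67, SE 0.132; adjusted p = 0.000304, edgeR), against 699, 570.3 and 541 CPM in 4C RC (difference -0.86, SE 0.186; adjusted p = 0.045, edgeR). For each of the 3, replicate 3 was the 4C LINE1 ASO library nearest to RC. Without it 13 of the 59 differences passed in that direction and 2 in the other, against 530 and 767 of all 16347 tested genes.

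DNA replication genes were near balance, with 18 of 53 higher and 21 lower (median -0.20, and -0.414 to 0.142 over the alternatives). The ribonucleotide reductase gene Rrm1 rose from 32.9, 25.6 and 33.3 to 139, 147 and 158 CPM (log2 2.27, SE 0.158; adjusted p = 3.45e-09, edgeR), and Pole, of the leading-strand polymerase, by 2.50. The single-strand binding protein gene Rpa1 fell from 148, 148 and 156 to 24.4, 14.6 and 21.7 CPM (log2 -2.90, SE 0.182; adjusted p = 1.18e-09, edgeR), and Asf1a, a histone chaperone, by 2.88. Rrm2, the other reductase subunit, rose to 136, 104 and 175 CPM with the LINE1 ASO and to 305, 229.6 and 255 CPM with RC (difference -1.12, SE 0.254; adjusted p = 0.0475, edgeR). Of the replication-dependent histones, 38 of 59 were higher and 10 lower (median 2.16, and 1.67 with RC). Their summed level did not rise with these counts. It was 1467, 1808 and 1818 CPM at early 2C and 1228, 1258 and 2069 CPM at 4C, with overlap. Hist1h4d rose from 7.62, 9.21 and 11.1 to 120.4, 111 and 117 CPM (log2 3.65, SE 0.245; adjusted p = 2.52e-09, edgeR) and Hist1h2be by 4.30, while the linker histone Hist1h1a fell from 865, 1023 and 1065 to 202, 167 and 247 CPM (log2 -2.26, SE 0.172; adjusted p = 9.95e-09, edgeR) and Hist4h4 by 1.93. Histone genes are near-identical copies whose reads may be split. Of 11 histone variants 3 rose and 3 fell (median -0.32, and -0.469 to 0.013 over the alternatives). H2afz, the gene of H2A.Z, rose from 5.87, 6.08 and 7.18 to 203, 198 and 174 CPM (log2 4.91, SE 0.197; adjusted p = 1.2e-11, edgeR), H2afv rose by 2.51, and H1f0 fell by 1.43.

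Of 24 genes of DNA methylation and imprint protection, 12 fell and 8 rose (median -0.39). Zfp57, which protects imprinted regions, fell from 4129, 4124 and 4241 to 207, 187 and 149.9 CPM (log2 -4.52, SE 0.173; adjusted p = 8.01e-12, edgeR), and Uhrf1, which brings Dnmt1 to replicated DNA, from 1015, 886 and 1086 to 67.3, 82.2 and 76.4 CPM (log2 -3.72, SE 0.158; adjusted p = 1.96e-11, edgeR). Zfp57 fell further with RC, to 68.5, 77.7 and 98.7 CPM, below every LINE1 ASO library (difference 1.32, SE 0.212; adjusted p = 0.0112, edgeR). Tet1, a methylcytosine dioxygenase, rose from 5.53, 5.71 and 5.22 to 319, 286 and 449 CPM (log2 6.00, SE 0.234; adjusted p = 9.7e-12, edgeR), and Ehmt2, the histone methyltransferase G9a, from 1.92, 1.57 and 2.70 to 100.3, 104 and 172 CPM (log2 5.92, SE 0.397; adjusted p = 2.44e-09, edgeR).

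The largest increases, by the rule for named genes and at 50 or more counts on average, began at or near 0. Phlda3, a repressor of Akt and p53 target, had 0 counts at early 2C and 35.4, 32.2 and 9.77 CPM at 4C, at least 859.7-fold higher when 3 counts over the 3 libraries are taken as the floor. Apobec3, a cytidine deaminase that restricts retroelements, went from 0 counts to 14.9, 16.9 and 23.1 CPM, at least 609-fold higher. Slc25a41, a mitochondrial carrier, and Eif2s3y, the translation factor subunit on the Y chromosome, were at least 508-fold and 361-fold higher by the same floor. Eda2r, a receptor of the TNF family, went from 1 count to 52.6, 64.3 and 22.1 CPM, a ratio of 4659.7 (95% counting interval 836 to 184096). Ctsz, a lysosomal cathepsin, went from 3 counts to 126, 149 and 167 CPM, a ratio of 4894 (1674 to 23734). From 1 count at early 2C, the ratio was 6475 for Fam65c (1162 to 255785), 3797 for the proteasome activator Psme1 (681 to 150000.0) and 3723 for the transcription factor Gata1 (668 to 147109). From 2 counts it was 3342 for the sarcosine dehydrogenase gene Sardh (925 to 27607). All 10 also rose with RC. Intervals and floors cover counting error only.

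The 10 largest decreases under the same rule had 0 counts in all 3 4C libraries. Among them were Evi2b, ORF63 and Fam71d, the endothelin receptor gene Ednrb, the gap junction gene Gjb1, the tachykinin gene Tac2, the receptor gene Gpr12, the pigmentation gene Oca2 and the GABA receptor subunit gene Gabra5. Evi2b was at 6.58, 6.32 and 4.17 CPM at early 2C and Ednrb at 6.09, 5.35 and 4.59 CPM, so that they were at least 164-fold and 154-fold lower. The bound was lowest for Gabra5, at 90.0-fold. All 10 were also called lower with RC. Across the whole table, 330 genes were under 1 CPM in every early 2C LINE1 ASO library and over 10 CPM in every 4C one. With RC there were 274, and 183 were on both lists (55.5% of the LINE1 ASO list and 66.8% of the RC list). The opposite switch was made by 83 genes with the LINE1 ASO and 127 with RC, with 47 on both (56.6% and 37%).

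The progress of each 4C library along the RC change was measured as the slope of its own change on that of RC, where 1 is the full change. The slope was 0.863, 0.863 and 0.936 for the LINE1 ASO libraries and 0.998, 0.947 and 0.938 for the RC libraries, each set against the other RC ones. Every LINE1 ASO library was below every RC library, but replicate 3, at 0.936, was next to the lowest RC library, at 0.938. The RC libraries shared their baseline at the earlier stage with the RC reference, whereas the LINE1 ASO libraries had a baseline of their own. Noise in a shared baseline moves a slope towards 1, so the groups were not measured alike. Neither this order nor the permutation test that follows can tell slower progress from that difference in baseline. The means of 0.887 ± 0.0425 and 0.961 ± 0.0321 (SD, n = 3) gave an exact two-sided permutation p of 0.1, the smallest that 3 against 3 can give.

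Under the rule for named genes, which leaves out predicted and clone-named genes such as Gm11818 (7.75), the 6 largest positive differences were those of Zscan4f, above, and of 5 other genes, of which all but Apobec3 were nearly lost with RC. Nacad was at 8.85, 8.53 and 12.4 CPM at early 2C and at 18.5, 9.92 and 0.76 CPM at 4C with the LINE1 ASO, which did not pass (log2 -0.03, SE 0.666; adjusted p = 0.974, edgeR), and replicate 3 was far below the others. With RC it fell from 11.7, 11.8 and 14.9 CPM to 1 count over the 3 libraries (difference 9.34, SE 1.43; adjusted p = 0.00962, edgeR). Epb4.2, a protein of the red cell membrane skeleton, fell from 8.85, 7.28 and 7.29 to 0.443, 1.14 and 1.16 CPM with the LINE1 ASO and to 0 counts with RC, at least 197-fold lower. Kcnmb2, a potassium channel subunit gene, fell to 1.55, 0.303 and 0.253 CPM with the LINE1 ASO and to 0 counts with RC, at least 138-fold lower. Creb3l1, a membrane-bound transcription factor gene, was at 5.24, 3.03 and 1.63 CPM at 4C with the LINE1 ASO, which did not pass (1.79; adjusted p = 0.058, edgeR) but did without replicate 3 (2.12; adjusted p = 0.039, edgeR) and also with library totals, and had 2 counts in all with RC. Apobec3 differed at the other end: its 4C levels were alike (14.9, 16.9 and 23.1 and 21.6, 17.5 and 23.6 CPM), and it had 0 counts at early 2C with the LINE1 ASO and 0.887, 0.403 and 0.953 CPM with RC. Selp, the gene of P-selectin, had the smallest p of all differences and is named for it after its values were seen: it fell from 49.1, 53.7 and 51.7 to 1.96, 1.28 and 1.66 CPM with the LINE1 ASO and to 0.0466, 0.047 and 0.0805 CPM with RC (difference 4.75, SE 0.453; adjusted p = 0.00036, edgeR). The fitted sizes of differences against groups at or near 0 counts depend on the prior count.

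The largest negative differences under the same rule, which leaves out D130040H23Rik (-6.29), took several forms, from a smaller increase to an opposite change. Gls2, a mitochondrial glutaminase gene, rose from 0.475, 1.13 and 0.35 to 13.6, 12.4 and 32.0 CPM (log2 4.93, SE 0.493; adjusted p = 2.37e-07, edgeR), against 67.6, 34.8 and 61.2 CPM in 4C RC (difference -3.17, SE 0.727; adjusted p = 0.0497, edgeR). In early 2C RC, Gls2 was at 0.211, 0.183 and 0.191 CPM, below every early 2C LINE1 ASO library. Zfp874b, a zinc-finger gene, rose from 0.777, 1.41 and 0.841 to 10.4, 12.4 and 18.2 CPM. With RC it rose from 0.422, 0.476 and 0.114 to 30.9, 36.4 and 26.2 CPM. For both genes the LINE1 ASO libraries were above RC at early 2C and below RC at 4C, so both stages entered the difference. Lrp2, the endocytic receptor megalin, did not pass with the LINE1 ASO at 17.7, 17.1 and 10.5 CPM (log2 0.29, SE 0.326; adjusted p = 0.441, edgeR), and with RC it rose from 8.66, 7.99 and 8.77 to 86.3, 30.8 and 50.3 CPM (difference -2.43, SE 0.467; adjusted p = 0.0352, edgeR). Acpp, an acid phosphatase, fell from 52.2, 53.4 and 49.5 to 14.3, 9.08 and 9.59 CPM and did not pass with RC (difference -2.01, SE 0.406; adjusted p = 0.0386, edgeR). Prkab1, which encodes a beta subunit of the energy sensor AMPK, fell from 193, 199 and 159 to 81.5, 76.5 and 91.9 CPM with the LINE1 ASO (log2 -1.14, SE 0.175; adjusted p = 2.72e-05, edgeR). With RC it rose from 64.7, 89.0 and 56.7 to 165, 137 and 160.0 CPM, so that the ASOs had opposite changes (difference -2.27, SE 0.248; adjusted p = 0.0011, edgeR). The LINE1 ASO libraries were above RC at early 2C and below RC at 4C, without overlap at either stage, and the difference was as large without replicate 3 (-2.35).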

How the data were processed

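RNA was sequenced from 12 bulk libraries of mouse embryos, 3 for each of 4 groups. The authors deposited 1 table for each stage, with whole-number counts of reads for 23284 genes and no normalization. Listed in the submitters' processing notes, with no role, are TopHat2 2.0.9, DESeq2 1.12.3, Trim Galore 0.4.0, R 3.3.0 and the genome build mm9. The sources used here do not give counting settings, annotation or use of strand, so values of overlapping, antisense and multicopy genes (Dux, Zscan4, Obox and histone genes) are uncertain.

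The tables were joined by gene symbol, and 15760 genes passed edgeR's low-count filter (7524 did not). Counts of all 12 libraries were fitted with edgeR 4.0.16 in R 4.3.3 (4 group means, TMM scaling, robust quasi-likelihood F-tests), with Benjamini-Hochberg adjustment over all tested genes and a threshold of 0.05. A call means an adjusted p under 0.05. SE is an approximate standard error of a log2 change, taken as its absolute size divided by the square root of its F value. The contrasts were 4C minus early 2C with the LINE1 ASO, the same with RC, and the difference between them. CPM values are counts divided by a library's total multiplied by its TMM factor (0.894 to 1.19 in the LINE1 ASO libraries), on the usual CPM scale, while percentages of counts are of the plain total. The LINE1 ASO libraries hold 24202425 to 51854939 counts. DESeq2 1.42.0, other scalings, filters and left-out libraries were the alternatives. The pipeline was tested on simulated counts.

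Genes were named by a rule: the 10 largest changes in each direction and the 6 largest differences in each direction among called genes averaging 50 counts or more, leaving out predicted or clone-named symbols and small RNA genes, the 2 called members with the smallest p in each direction of each list, both genes of 16 pairs, and a set of stage markers. Other genes in the text are members of the 23 lists or are named in a count, after their values were seen. The members and lists were chosen with earlier results of these data known. Between the stages, deviations of same-numbered LINE1 ASO libraries from their group means correlated at 0.013, 0.036 and 0.036. For differently numbered ones the range was -0.039 to 0.004. A link by replicate number was thus weak at most, and one between LINE1 ASO and RC libraries was not examined. Sequences are from RefSeq (GRCm38.p6), whose coordinates are not those of mm9.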

Additional observations from a re-analysis of the deposited data

Results flagged for a closer look

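For 26 of the named genes the change from early 2C to 4C differed between the ASOs by the test of the difference itself (edgeR, adjusted p under 0.05). Values are the log2 change with the LINE1 ASO minus that with RC. The difference was positive for Apobec3 (7.17), Creb3l1 (7.10), Dux (5.85), Epb4.2 (7.82), Kcnmb2 (7.31), Ldhb (0.99), Manf (1.20), Nacad (9.34), Pmaip1 (3.35), Ppm1d (1.87), Sesn1 (2.52), Trp53 (1.45), Zfp57 (1.32) and Zscan4f (7.79). It was negative for Acpp (-2.01), Cdc25a (-1.60), Esrrb (-2.12), Gls2 (-3.17), Kif18a (-1.61), Lrp2 (-2.43), Pabpc1 (-1.23), Prc1 (-0.86), Prkab1 (-2.27), Rrm2 (-1.12), Tfap2c (-1.18) and Zfp874b (-2.74). Differences of Creb3l1, Epb4.2, Kcnmb2 and Nacad are set against RC groups with at most 2 counts at 4C, and that of Apobec3 against 0 counts at early 2C with the LINE1 ASO, so their fitted sizes depend on the prior count. With groups of 3 libraries, no single library was tested for standing apart.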

How the results depend on the processing

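Over the alternatives the count of genes called with the LINE1 ASO ran from 8652, against a log2 change of 1 (glmTreat), to 11689 with DESeq2, and 48.7% to 58.3% of the calls were higher at 4C. Of 169 named genes 150 were called, 10 of these lost the call under some alternative other than glmTreat, and 0 changed sign. List medians kept their sign except for DNA replication, mitosis, histone variants and the cumulus, sperm and blood markers. The difference between the ASOs was less stable: 176 genes became 277 with library totals, 906 with DESeq2, 91 with the replicate block (44 higher and 47 lower) and 9 with glmTreat, and 19 (without early 2C LINE1 ASO replicate 2) to 1297 (without 4C LINE1 ASO replicate 3) when 1 library was left out. The 176 were also lost in part without 4C RC replicate 1 (48) and rose to 358 without 4C RC replicate 3. The cause was not tested. The labels do not say that replicate numbers pair these libraries, so the block tests only a shared number.

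Genes that changed sign had no call with all libraries. Rad21 was at -0.059 with DESeq2 size factors and with DESeq2, at -0.091 with the 6 libraries alone and at -0.076 with the replicate block. Tfap2c was at -0.064 with DESeq2 size factors and with DESeq2 and at -0.106 with the 6 libraries alone. With library totals Dux was at 0.236, Nacad at 0.308, Sox2 at 0.005, Zp3 at 0.059 and Zscan4d at 0.115, and with a mean of at least 50 counts Nacad was at 0.049. Leaving out 1 library gave -0.587 to 0.278 for Rad21, -0.151 to 0.113 for Tfap2c, -0.313 to 0.644 for Cdx2, -0.021 to 0.489 for Lrp2 and -0.607 to 1.261 for Rec8. It gave -1.942 to 0.254 for Zscan4d, -0.373 to 1.166 for Zfp352, -0.559 to 0.448 for Dux, -0.476 to 0.547 for Esrrb and -0.89 to 0.515 for Nacad. Slopes of progress differed by -0.088 to -0.033 over their alternatives, against -0.074. Rec8 had 48 counts over the 3 early 2C libraries and 65 over those at 4C, and Cdx2 had 55 and 58, so their values rest on few counts.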

Other observations

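Xist and Eif2s3y, 1 gene on each sex chromosome, were called higher at 4C. Xist, the noncoding RNA that silences an X chromosome in female mouse cells, was at 0.0648, 0.483 and 0.0701 CPM at early 2C and at 54.7, 46.9 and 58.6 CPM at 4C with the LINE1 ASO (log2 8.21, SE 0.729; adjusted p = 6.13e-08, edgeR), tight among the 3 libraries. With RC it was at 0.465, 0.0366 and 0.114 CPM and then at 164, 734 and 232 CPM, higher than in every LINE1 ASO library and widely spread, and the difference of the changes did not pass (-2.67, SE 1.30; adjusted p = 0.307, edgeR). Eif2s3y on the Y chromosome was at 14.2, 7.90 and 10.8 CPM at 4C with the LINE1 ASO and at 23.7, 3.48 and 10.8 CPM with RC. The labels give no sex for the embryos, and the share of female and male embryos in each library was not tested.

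Ccdc82, whose role is not described here, was the most abundant gene of the early 2C LINE1 ASO libraries, with 4.94% to 5.62% of their unscaled counts. It fell from 62880.1, 55439 and 54219.7 to 21321, 16048 and 11759 CPM (log2 -1.81, SE 0.176; adjusted p = 1.66e-07, edgeR), with replicate 1 the highest and replicate 3 the lowest at 4C. Leaving out the 20 most abundant genes kept 11291 of the 11319 calls of the LINE1 ASO comparison.

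Across 15544 genes with a transcript length, the log2 change fell slightly with length (Spearman rho -0.115 with the LINE1 ASO and -0.089 with RC, across genes), a description added after the data were seen.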
